A study of Rattus norvegicus with 12 samples.

Results

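The comparison described here sets crushed rat sciatic nerve that received exosomes and ultrasound against crushed nerve that received exosomes without ultrasound. Its libraries were assigned by their titles, not by measured values, and make up 6 of the 12 libraries of the series, 3 in each group. The rats were of the SD (Sprague-Dawley) strain, and in all 12 libraries the sciatic nerve had been crushed, so no library comes from an uninjured nerve. The iPSC-Exos + LIPUS group (replicates 1, 2 and 3) was given 10 μL of iPSC-Exos at 100 μg/mL by the labels. Its ultrasound had an intensity of 250 mW/cm² at 1 MHz with a 20% duty cycle, for 5 minutes a day on 5 days a week over 4 weeks. The iPSC-Exos group (replicates 2, 3 and 5) was given 10 μL of iPSC-Exos, and its labels state 103, 104 and 105 μg/mL, 1 value for each replicate. These rise by 1 from label to label and may be a clerical series rather than measured doses, so no difference in dose is read from them. The remaining 6 libraries, used here for reference, are the LIPUS group (replicates 2, 6 and 7), with the crush and the same ultrasound but no exosomes, and the Crush control group (replicates 1, 4 and 9), with the crush as the sole labelled treatment. The male rats of the study were 5 weeks old when assigned to groups, although its text does not mention the rats with ultrasound.

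After a crush, the axons beyond the injury break down, Schwann cells give up myelin production and turn to repair, and macrophages clear the debris before axons grow back. Exosomes are small vesicles that cells release and that carry proteins and RNA to other cells; here they came from cultures of induced pluripotent stem cells (iPSC-Exos). Low intensity pulsed ultrasound (LIPUS) delivers short bursts of pressure waves to tissue and is best known as a physical therapy for healing bone. The question that the labels pose is what ultrasound adds to the gene expression of a crushed nerve already treated with exosomes.

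Some limits apply to every value below. The ultrasound course of 4 weeks is longer than the 7 postoperative days after which the study sampled nerves for sequencing. The sampling day of the rats with ultrasound was not given in the sources used here, so ultrasound and time after injury cannot be told apart. The labels name the tissue as whole brain while their extraction text names sciatic nerve, and this could not be checked against marker genes. The deposited counts list genes by Ensembl ID without names and 0 of the 30562 IDs could be matched to a symbol, so genes are given by ID and no pathway or cell type is described. Nerve is a bulk tissue, in which fewer cells of a type and less RNA per cell cannot be told apart.

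The libraries were shallow but even in depth. Totals lay between 1259178 and 1351489 counts in the iPSC-Exos group and between 1316673 and 1542634 in the iPSC-Exos + LIPUS group. Of 14298 genes with a count in any library, 4640 passed edgeR's filter on low counts and were tested, and they held 99.3% of all counts. A pair of libraries stood apart through a single ID, ENSRNOG00000020644, mentioned here because of its values. It took 32.5% of Crush control replicate 9 (95% Wilson interval 32.4 to 32.5%, counting error only) and 9.28% of iPSC-Exos + LIPUS replicate 2 (9.24 to 9.33%), against 0.391% to 2.85% of the other 10 libraries. Between the groups compared here it did not pass (adjusted p = 0.990, edgeR), at 1.27 on the log2 scale with a standard error of 1.11. Levels are given below as CPM, the count relative to the library total after edgeR's TMM scaling, in counts for each 1000000, and a count of 3 corresponded to between 2.01 and 2.30 CPM in the 6 libraries compared.

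The profiles of both groups were close. Over the tested genes in log2 CPM, libraries of the iPSC-Exos group correlated with each other at a Spearman's rho of 0.964 to 0.967 and those of the iPSC-Exos + LIPUS group at 0.962 to 0.966. A library of one group correlated with a library of the other at 0.958 to 0.967. These are correlations across genes, which are not independent replicates. Euclidean distances averaged 43.0 across the groups and 41.8 inside them. Distances between groups exceeded those within groups by 1.16, more than in the 9 other ways to divide the 6 libraries (one-sided exact permutation test, p = 0.1, the smallest p that this design allows). Leaving out replicate 3 or replicate 5 of the iPSC-Exos group lowered the excess to 0.345 or 0.338, and leaving out iPSC-Exos + LIPUS replicate 1 gave 2.11.

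In edgeR no gene passed a correction for multiple testing with ultrasound, while DESeq2 passed a small number. By the quasi-likelihood test of edgeR, 0 of the 4640 genes (0%) reached 0.05 after Benjamini-Hochberg adjustment, and the smallest adjusted p was 0.0544. Before adjustment 256 genes, or 5.52%, had p under 0.05, where an even spread of p-values gives 232. DESeq2, run on the same 12 libraries, gave a p for 14285 genes and an adjusted p for 5692 of them. It placed 20 genes under an adjusted p of 0.05, of which 19 were higher with ultrasound and 1 was lower. All 20 also passed the study's threshold in edgeR, as did 4.01% of all tested genes. Their groups did not overlap, as in 12.8% of all tested genes, and their log2 fold changes measured between 0.72 and 2.77 in size. Both traits are largely set by the choice of the 20 on these same libraries. The control library that stood apart bore on the count as well. Crush control replicate 9 lies outside the comparison but enters the shared estimate of the spread. Without it, edgeR placed 8 of the 4822 genes then tested under an adjusted p of 0.05. All 8 were higher with ultrasound, by 0.82 to 1.76 on the log2 scale. Without LIPUS replicate 2, LIPUS replicate 7 or iPSC-Exos + LIPUS replicate 3 the number was 2 of 4808, 3 of 4799 and 1 of 4806, all higher.

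The genes nearest to the threshold lay on the higher side. The 5 genes with an adjusted p under 0.1 in edgeR were higher in the iPSC-Exos + LIPUS group, by 1.08 to 1.76 on the log2 scale. Of the 21 genes with an adjusted p under 0.25, 19 were higher and 2 lower, and in each of the 21 the groups did not overlap. Over all tested genes 12.8% showed no overlap. For the 21 it is largely set by their small p on the same libraries.

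The study states a looser threshold for differential expression, which asks for a log2 fold change of 0.5 or more in either direction and for p up to 0.05 without adjustment. It was passed by 128 genes that were higher with ultrasound and by 58 that were lower. These are 2.76% and 1.25% of the genes tested, or 4.01% in all, and the higher genes made up 68.8% of the 186 calls. Among all tested genes the balance was not on the higher side, with 2226 log2 fold changes above 0 and 2414 below, and a median of -0.01. The median log2 fold change was 1.00 among the 128 and -1.03 among the 58. It reached at least 1 in 63 of the higher genes and -1 or lower in 30 of the lower genes. The 3 libraries of the groups did not overlap in 105 of the 128 and in 37 of the 58, whereas over all tested genes 6.79% lay higher and 5.97% lower without overlap, 12.8% in all. The calls were made on these same libraries, so the lack of overlap among them is largely set by the choice and is given as a description.

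**Figure D1:**
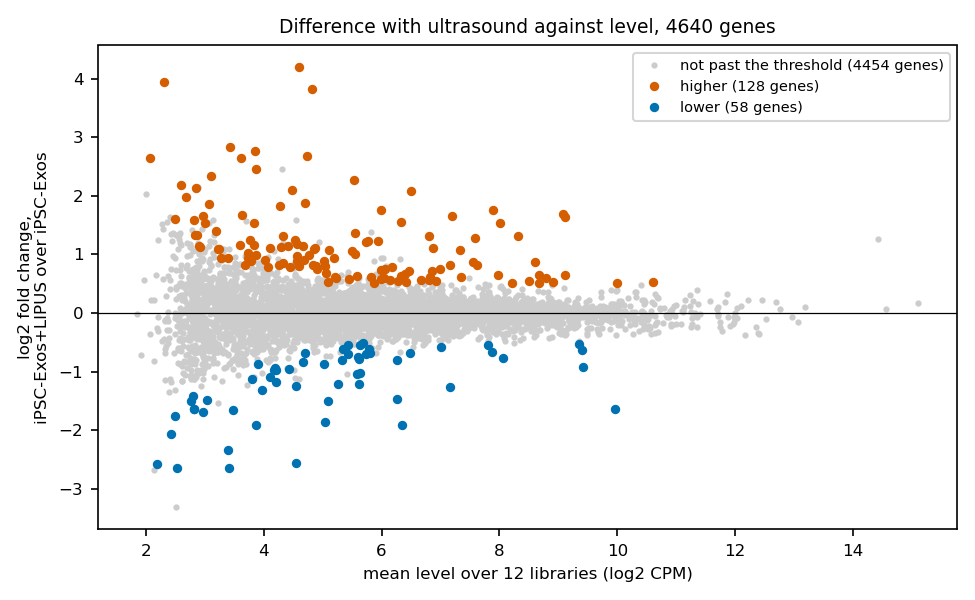
Log2 fold change of iPSC-Exos + LIPUS over iPSC-Exos (vertical axis) against the mean level over the 12 libraries in log2 CPM (horizontal axis), each point a gene. The 128 genes higher (orange) and 58 lower (blue) at the study's threshold spread over the range of levels, and the other genes (grey) lie closest to 0 at high levels.

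Low and well measured genes shared in the calls. With the tested genes divided into 4 equal parts of 1160 by mean CPM, 34 higher and 18 lower genes fell in the lowest part, 40 and 23 in the next, 32 and 7 in the part between 54.5 and 165 CPM, and 22 and 10 in the highest part. The median standard error of the log2 fold change was 0.53 in the lowest part and 0.15 in the highest.

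Among the calls, the largest fold changes were the least even. Of the 15 genes called higher with a log2 fold change of at least 2, 7 showed no overlap between the groups. In 10 of the 15, a single iPSC-Exos + LIPUS library held over 0.5 of the summed CPM of its group, and the smallest adjusted p among the 15 was 0.114 (edgeR). Of the 6 genes called lower at -2 or lower, 2 showed no overlap and 4 had over 0.5 of the iPSC-Exos group's CPM in 1 library. Genes that were not called are left out here. The lowest log2 fold change was -3.32 over all tested genes and -2.66 among the calls.

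For many genes the data also limited how large a difference could be. The 95% interval of the log2 fold change lay between -1 and 1 for 3013 genes, or 64.9% of those tested, and between -0.5 and 0.5 for 1086 genes, or 23.4%. This varied with the level, and the interval stayed within -1 and 1 in 79 of the 1160 genes of the lowest part and in 1113 of the 1160 of the highest. For 312 genes the interval reached past 1 in both directions, and no statement can be made about them.

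A pair of IDs is described in each direction, taken as those with the smallest p among genes past the study's threshold without overlap. ENSRNOG00000024801 was counted 2916, 2123 and 1639 times in iPSC-Exos + LIPUS replicates 1, 2 and 3. With exosomes alone, replicates 2, 3 and 5 had 750, 774 and 434. It had 433, 565 and 743 counts in LIPUS replicates 2, 6 and 7, and 443, 471 and 297 in Crush control replicates 1, 4 and 9. The 3 libraries with both treatments therefore lay above the other 9, among which iPSC-Exos replicate 5 was at the level of the controls. In CPM the level was 1549 ± 475 (SD, n = 3) with both treatments against 482 ± 143 (SD, n = 3) with exosomes alone, 3.21-fold higher. The log2 fold change was 1.68 (standard error 0.26, 95% interval 1.14 to 2.23, adjusted p = 0.0544, edgeR). DESeq2 gave an adjusted p of 2.8e-08.

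ENSRNOG00000067650 had 197, 149 and 165 counts in iPSC-Exos + LIPUS replicates 1, 2 and 3. With exosomes alone it had 70, 69 and 69 (replicates 2, 3 and 5), a narrow spread. The LIPUS replicates 2, 6 and 7 had 33, 55 and 57 counts and the Crush control replicates 1, 4 and 9 had 53, 53 and 39. Here too the 3 libraries with both treatments lay above the other 9. The level was 119 ± 20.2 CPM (SD, n = 3) against 51.2 ± 2.24 CPM (SD, n = 3) with exosomes alone. This is a log2 fold change of 1.21 (standard error 0.20, 95% interval 0.79 to 1.64, adjusted p = 0.0568 in edgeR and 4.9e-04 in DESeq2).

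ENSRNOG00000070747 was lower with ultrasound. It had 215, 226 and 179 counts in iPSC-Exos + LIPUS replicates 1, 2 and 3 against 274, 404 and 316 with exosomes alone (replicates 2, 3 and 5). The LIPUS replicates 2, 6 and 7 had 459, 766 and 555 counts, and the Crush control replicates 1, 4 and 9 had 542, 438 and 403. After scaling, the 3 groups of libraries formed steps without overlap, from 143 ± 15.5 CPM (SD, n = 3) with both treatments through 243 ± 40.7 CPM (SD, n = 3) with exosomes alone to 316 CPM and above in the 6 libraries without exosomes. The log2 fold change with ultrasound was -0.76 (standard error 0.16, 95% interval -1.11 to -0.41, adjusted p = 0.129 in edgeR and 0.0121 in DESeq2).

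ENSRNOG00000018158 had 47, 30 and 37 counts in iPSC-Exos + LIPUS replicates 1, 2 and 3, while exosomes alone gave 51, 82 and 87 (replicates 2, 3 and 5). Its counts were 86, 86 and 97 in LIPUS replicates 2, 6 and 7 and 84, 101 and 67 in Crush control replicates 1, 4 and 9. The libraries with both treatments were the lowest of the 12, and the other 3 groups overlapped. The level was 26.5 ± 6.66 CPM (SD, n = 3) against 53.8 ± 13.0 CPM (SD, n = 3) with exosomes alone. On the log2 scale the difference was -1.02 (standard error 0.25, 95% interval -1.55 to -0.49, adjusted p = 0.221 in edgeR and 0.0790 in DESeq2). Near-identical copies of these genes, between which reads can be split, were not looked for.

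**Figure D2:**
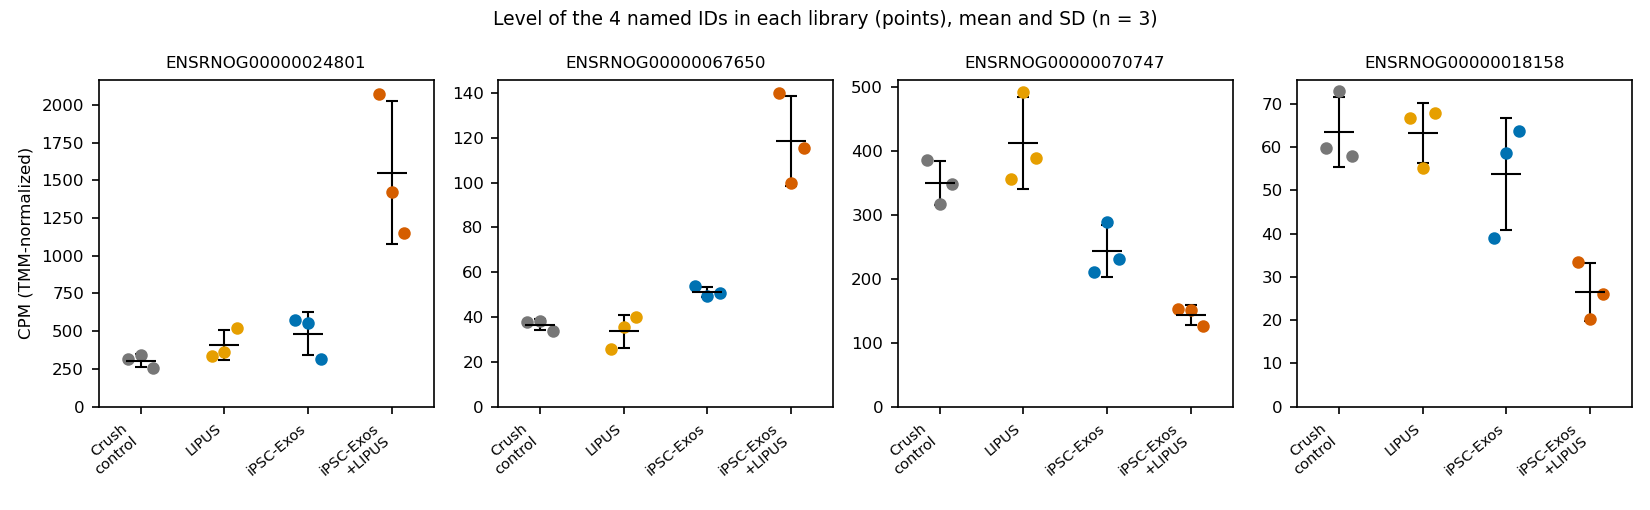
CPM (vertical axis, from 0) of the 4 IDs in each of the 12 libraries (points) by group, with the mean and SD (n = 3) in black. In the first 2 panels the iPSC-Exos + LIPUS libraries lie above the other 9, and in the last 2 they lie below them.

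The LIPUS and Crush control libraries entered the calls through the filter and the shared estimate of the spread, not through the fold change. They give the matching difference with ultrasound in rats without exosomes, whose fold change rests on no library in common. Few genes differed there in the fit of all 12 libraries. In edgeR, 0 of the 4640 genes (0%) passed the adjustment, 113 (2.44%) had p under 0.05 before it, and 32 (0.690%) were higher and 62 (1.34%) lower at the study's threshold. DESeq2 also passed 0 genes. Without Crush control replicate 9, 317 of the 4822 genes then tested had p under 0.05 before adjustment in edgeR and 0 passed it. In that fit 379 genes had p under 0.05 for the difference among rats with exosomes. The low count without exosomes thus depended on this library.

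The genes called with exosomes did not move to one side without them. Of the 128 genes higher with ultrasound among rats given exosomes, 63 were also higher in LIPUS than in Crush control libraries and 65 were lower, with a median log2 fold change of -0.01. Over all tested genes 45.3% were higher. Of the 58 lower genes, 31 were also lower without exosomes and 27 were higher, with a median of -0.01. Past the study's threshold in both differences were 2 of the 128 in the same direction and 5 in the other. Of the 58 there were 2 in the same direction and 1 in the other. Over all tested genes, 0.690% were higher and 1.34% lower at this threshold without exosomes. The difference without exosomes was smaller than 0.5 in size in 98 of the 128 genes and in 38 of the 58, which is 76.6% and 65.5%, against 88.4% of all tested genes. Over all tested genes 49.0% had the same sign in both differences. Across all 4640 genes the log2 fold changes of both differences had a Spearman's rho of -0.0250 and a Pearson's r of -0.0780, where genes are not independent. Without Crush control replicate 9, 64 of the 128 genes were higher and 31 of the 58 lower in LIPUS than in Crush control libraries, against 50.02% and 49.98% of all genes tested in that fit.

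**Figure D3:**
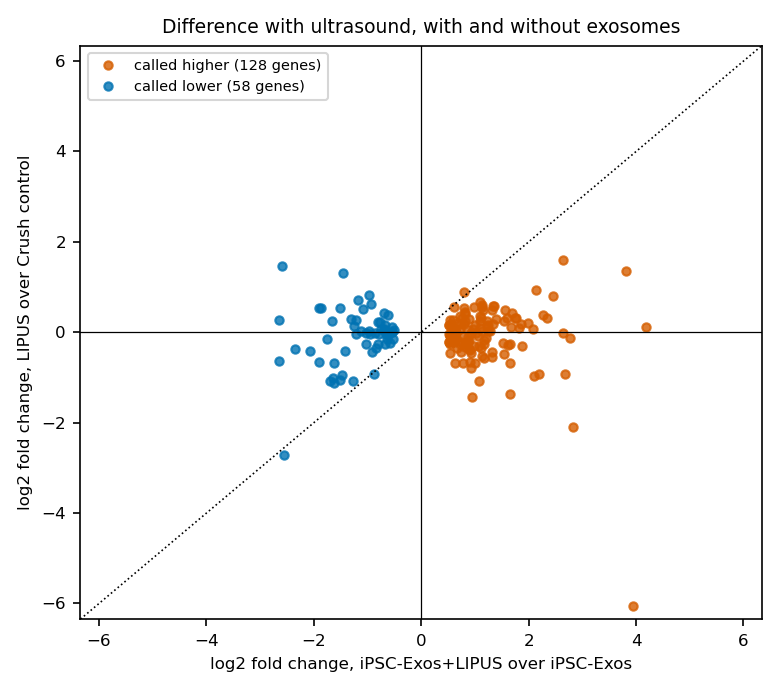
For the 128 genes called higher (orange) and the 58 called lower (blue), the log2 fold change with ultrasound among rats with exosomes (horizontal axis, on which the genes were called) and among rats without exosomes (vertical axis). The dotted line marks equal differences. Vertically the points lie on both sides of 0, with 63 of the 128 above and 31 of the 58 below.

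Whether the difference with ultrasound was unequal with and without exosomes was tested as an interaction over all 12 libraries. No gene passed in edgeR (0 of 4640 genes, 0%, smallest adjusted p = 0.610), 196 genes (4.22%) had p under 0.05 before adjustment, and DESeq2 gave 0. Without Crush control replicate 9 the 196 became 336, of 4822 genes then tested. At the study's threshold, 116 genes (2.50%) had an interaction above 0 and 63 (1.36%) below. The interaction holds the libraries on which the 186 genes were called, so that the 91 of them with an interaction p under 0.05 are in part fixed by that choice. For ENSRNOG00000067650 the log2 fold change with ultrasound was 1.21 with exosomes and -0.12 (standard error 0.21) without, a difference of 1.33 (standard error 0.29, adjusted p = 0.610, edgeR). For ENSRNOG00000024801 it was 1.68 with exosomes and 0.42 (standard error 0.25) without, a difference of 1.27 (standard error 0.36, adjusted p = 0.740, edgeR). For ENSRNOG00000070747 it was -0.76 with and 0.24 (standard error 0.16) without exosomes, and for ENSRNOG00000018158 -1.02 and -0.01 (standard error 0.23), with adjusted p = 0.610 and 0.810 for the differences (edgeR).

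Set beside the other groups, the genes called higher stood out in the libraries with both treatments. In each library, the log2 CPM of each gene was taken relative to its mean in the 3 Crush control libraries. Over the 128 genes the median was between 0.76 and 0.88 in the iPSC-Exos + LIPUS libraries. It ran from -0.28 to 0.05 with exosomes alone and from -0.10 to 0.00 with ultrasound alone. The lowest of the iPSC-Exos values belonged to replicate 5. All tested genes had library medians between -0.01 and 0.04. In 47 of the 128 genes, or 36.7%, the 3 libraries with both treatments lay above each of the other 9, as they did in 1.88% of all tested genes. That they lay above the iPSC-Exos libraries is partly set by the choice of genes. Genes chosen for high values in these 3 libraries also tend to lie above LIPUS and Crush control. The medians and the 36.7% are therefore given as a description. Without Crush control replicate 9, the libraries with both treatments lay above each of the other 8 in 54 of the 128 and in 2.32% of all tested genes.

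The genes called lower differed in another way. Over the 58 genes the median relative to Crush control was between -0.60 and -0.38 in the iPSC-Exos + LIPUS libraries. It was 0.30 to 0.48 with exosomes alone, so the 2 groups lay on opposite sides of the controls. The LIPUS libraries were at -0.06 to -0.01. The mean of the iPSC-Exos group was above that of Crush control in 41 of the 58, and in 48 of the 128 genes called higher, against 49.5% of all tested genes. These values share the iPSC-Exos libraries with the calls and cannot be read as a separate result. The libraries with both treatments lay below each of the other 9 in 11 of the 58 genes, or 19.0%, against 1.31% of all tested genes. The 58 were called for low values in these libraries, so this share too is in part set by that choice.

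**Figure D4:**
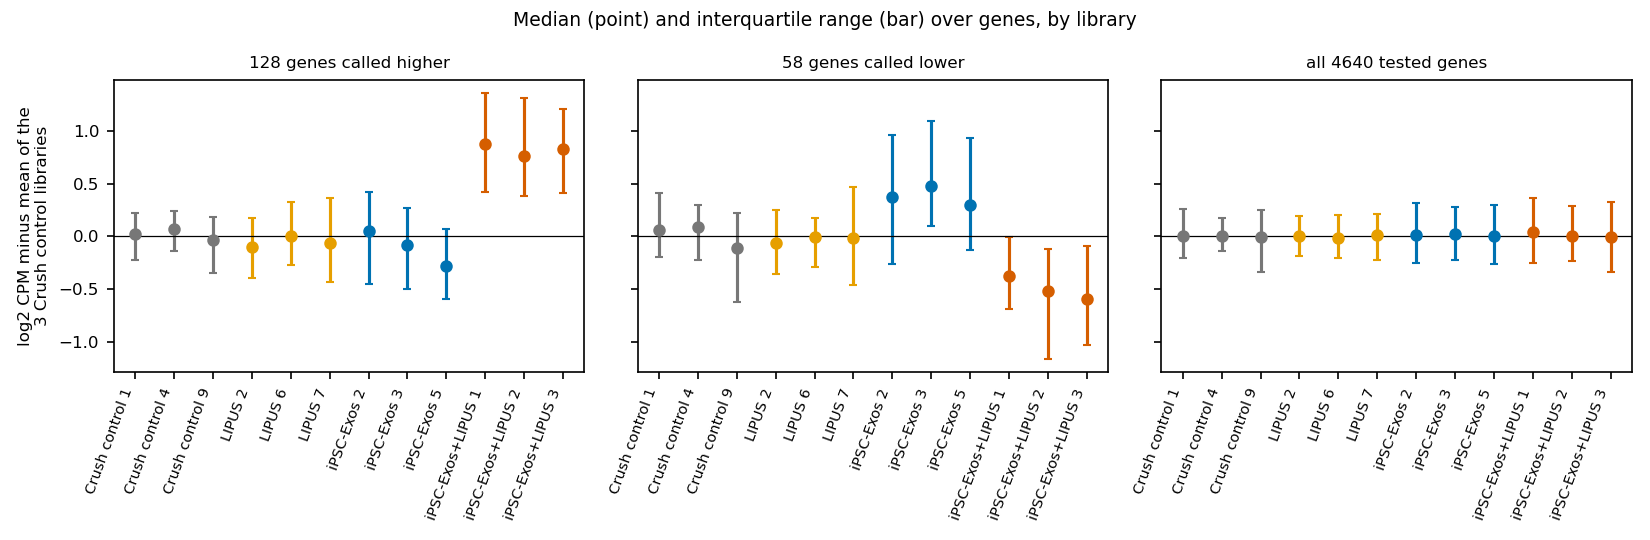
Median over genes (points) and interquartile range (bars) of the log2 CPM relative to the mean of the 3 Crush control libraries, for each of the 12 libraries. For the 128 genes called higher (left), the iPSC-Exos + LIPUS libraries lie at 0.76 to 0.88 and the other 9 between -0.28 and 0.07; for the 58 called lower (middle) the iPSC-Exos libraries lie above 0 and the iPSC-Exos + LIPUS libraries below; all tested genes (right) are near 0.

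The 4 named IDs can also be read against the controls, from the same fit, with libraries shared between the comparisons. ENSRNOG00000024801 differed from Crush control by 0.66 (standard error 0.25, adjusted p = 0.342, edgeR) with exosomes and by 2.35 (standard error 0.26, adjusted p = 0.00132, edgeR) with both treatments, on the log2 scale. ENSRNOG00000067650 differed by 0.48 (standard error 0.21, adjusted p = 0.408, edgeR) and by 1.69 (standard error 0.20, adjusted p = 0.00132, edgeR). ENSRNOG00000070747 differed by -0.52 (standard error 0.16, adjusted p = 0.213, edgeR) and by -1.29 (standard error 0.16, adjusted p = 0.00193, edgeR). ENSRNOG00000018158 differed by -0.24 (standard error 0.24, adjusted p = 0.788, edgeR) and by -1.26 (standard error 0.25, adjusted p = 0.0198, edgeR). All 4 thus passed the adjustment for both treatments against the crush alone, as did 1.94% of the tested genes, and none of the 4 did for exosomes against the crush alone, where 0.129% did. The 4 were chosen by their values in the libraries with both treatments and with exosomes alone. Both outcomes are therefore in part set by that choice and are not separate support.

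The balance of higher and lower calls depended on single libraries. Among the 128 genes, the highest of the libraries with both treatments was replicate 1 in 53, replicate 3 in 43 and replicate 2 in 32. The lowest of the iPSC-Exos libraries was replicate 5 in 67 of the 128, replicate 3 in 31 and replicate 2 in 30. With each library of the 2 groups left out in turn, between 105 and 155 genes were higher and between 42 and 92 lower. The number of lower genes moved past 1.5 times its value only without iPSC-Exos + LIPUS replicate 1, where 116 genes were higher and 92 lower. Higher genes outnumbered lower ones in each of these fits, with shares from 55.8% to 74.2%. When the fit was limited to the 6 libraries and blocked on the replicate number, 87 genes were higher and 83 lower, or 51.2% higher. In that fit iPSC-Exos + LIPUS replicate 1 and iPSC-Exos replicate 5 had no partner of the same number. Its fold changes therefore rest on replicates 2 and 3 of each group and are not a comparison of 3 against 3. Between 114 and 137 of the 186 genes were called again when a library of the 2 groups was left out.

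**Figure D5:**
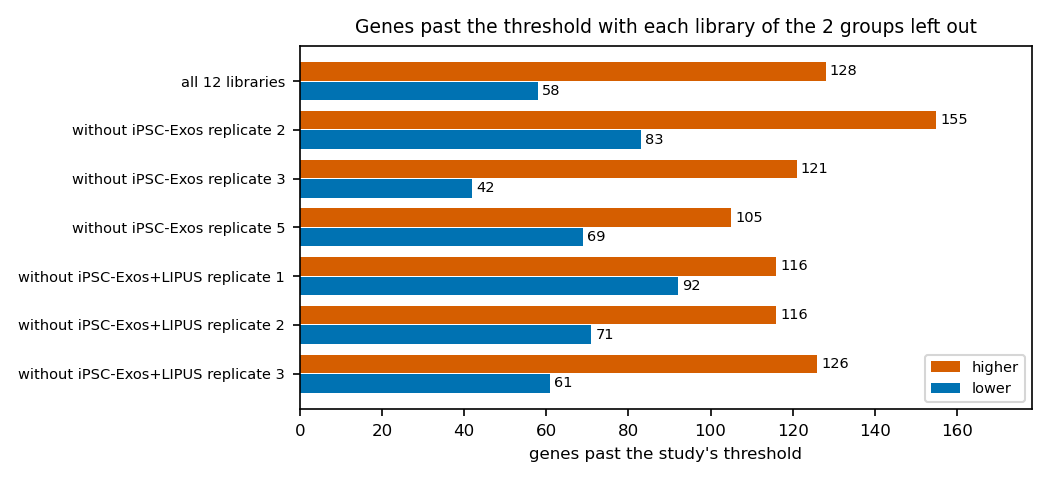
Number of genes past the study's threshold (horizontal axis, from 0) that were higher (orange) or lower (blue) with ultrasound, with all 12 libraries and with each library of the 2 groups left out. Higher genes range from 105 to 155 and lower genes from 42 to 92.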

How the data were processed

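Groups, replicates and doses were taken from the labels, and each of the 12 columns was matched to a library by its name. Reads had been trimmed (Trimmomatic, version 0.38) and aligned (HISAT2, version 2.0.5) by the authors, and the values they deposited are whole-number counts of reads for each gene ID, not normalized. The submitters' processing notes also name SAMtools, StringTie and the build Rnor_6.0; the counting tool was not given in the sources used here. The study's methods name a DESeq2 test between 2 conditions.

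Starting there, genes with low counts were removed by filterByExpr, and libraries were scaled with TMM factors and tested in R (version 4.3.3) with edgeR (version 4.0.16), by the quasi-likelihood test with a mean for each of the 4 groups and Benjamini-Hochberg adjustment. All 12 libraries share the estimate of the spread. Standard errors were obtained by dividing each log2 fold change by the root of its F statistic. DESeq2 (version 1.42.0) was an alternative. Log2 CPM used a prior count of 2. Replicates of the 2 groups differed by more than counting noise, with a chi-square of 7.56 to 21.7 for each degree of freedom. Labels do not say that replicates are separate rats, so p-values measure the spread between these libraries. Totals of 1251715 to 1854545 counts leave rare genes unmeasured. The steps were tested on simulated data.

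IDs were to be named in each direction by the smallest p past the study's threshold without overlap, after any past the adjustment, and at most 2 because IDs have no names. The reference gene table lists 47357 genes, 0 with an Ensembl ID; marker, pathway and study gene lists were therefore not analysed here. The comparison and its tests were chosen with earlier results of these data known. Alternatives were other factors, filters, sets of libraries, DESeq2, a replicate block and each replicate left out; the fits without the largest gene and with edgeR's robust prior, and the distances between profiles with all their alternatives, were added after seeing the data.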

Additional observations from a re-analysis of the deposited data

How the results depend on the processing

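There were 22 alternatives, each changing 1 choice, with some exceptions. DESeq2 was run with its own scaling in place of TMM and without edgeR's filter on low counts. On the 12 libraries its adjustment covered 5692 of the 14285 genes with a p. DESeq2 and the replicate block were each also combined with only the 6 libraries. The 0 of 4640 genes that passed the adjustment between the 2 groups became 1 with RLE factors and without the largest gene. DESeq2 gave 20, from 14285 genes with a p, and 29 on only the 6 libraries, from 12373. Without a filter on low counts 85 of 14298 passed. With the robust prior 4 of 4640 passed, and 4 of 3533 when each library had to hold 10 or more counts. The number was 0 with upper quartile factors, where 258 genes had p under 0.05 before adjustment. It was also 0 in edgeR on only the 6 libraries, where 311 had one. Leaving out 1 of the 12 replicates at a time, it ranged from 0 to 8, the 8 without Crush control replicate 9, 2 without LIPUS replicate 2, 3 without LIPUS replicate 7 and 1 without iPSC-Exos + LIPUS replicate 3. The causes were not tested.

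At the study's threshold, 284 genes were higher and 164 lower of 14298 tested without a filter, against 128 and 58 of 4640. Leaving out a replicate gave from 105 to 155 higher and from 42 to 92 lower genes. Higher genes outnumbered lower ones in all 22 alternatives, with shares between 51.2% and 74.2%; another scaling moved the share by little (68.6% with RLE, 67.8% with upper quartile factors).

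For LIPUS against Crush control (0 genes) and for the interaction (0), 47 and 64 of the 14298 genes passed without a filter. With replicates left out, LIPUS against Crush control ranged from 0 to 1, the 1 without Crush control replicate 4, and the interaction gave 0 in each fit, where 172 to 336 genes had p under 0.05 before adjustment, the 336 without Crush control replicate 9.

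The numbers 2 and 3 occur in both groups. With the replicate block and only the 6 libraries, 11 genes passed the adjustment, 10 of them higher, against 0 without the block, and 87 genes were higher and 83 lower at the study's threshold. Taken as deviations from the group mean, libraries sharing a number correlated at -0.119 and -0.0110 across genes. The mean over the 7 other pairs was 0.0185. The libraries sharing a number were thus not more alike, but 2 pairs are too few to decide whether the numbers mark a pairing.

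All 4 named IDs kept their direction in the 22 alternatives. The adjusted p was under 0.05 in 12 of them for ENSRNOG00000024801 (range 1.9e-21 to 0.253), 8 for ENSRNOG00000067650 (3.6e-04 to 0.314), 3 for ENSRNOG00000070747 (0.00296 to 0.565) and 1 for ENSRNOG00000018158 (0.0354 to 0.704). The 1.9e-21, 0.00296 and 0.0354 came from edgeR without a filter on low counts. The 3.6e-04 came from DESeq2 on only the 6 libraries. For ENSRNOG00000024801 the log2 fold change without the filter was 1.67, against 1.68 in the main fit. The excess of distances across groups over those inside them (1.16) was from 0.338 to 2.11 with replicates left out, and 1.00 without a filter. Medians of gene lists were not run, since they need gene names.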

Other observations

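Genes too rare to be tested held some differences in detection. A count in all 3 iPSC-Exos + LIPUS libraries and none in the iPSC-Exos libraries was found for 79 genes, and the reverse for 35, and none of these was among the genes tested. The largest sum over 3 libraries was 17 counts among the 79 and 11 among the 35. Of the 79 genes, 73 also had a count in a LIPUS or Crush control library, as did 30 of the 35. In all, 6248 genes had a count in each iPSC-Exos + LIPUS library, 6116 in each iPSC-Exos library and 5576 in all 6. No test was made of these genes.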
